A study of Mus musculus with 10 samples.

Results

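The 8 genes described here are those of extracellular adenosine. They are the ectoenzymes Entpd1, Nt5e and Cd38, the clearing genes Ada and Adk, listed with Dpp4, and the receptors Adora2a and Adora2b. These 8 were picked by gene name for their place in the pathway, with earlier results of these data known. The rule set no threshold on their values, and each was found as 1 row among the 54532 genes of the count table. All 8 passed the filter on low counts that left 21414 genes for testing. RNA was amplified by Smart-seq2, which copies whole transcripts from little RNA, in Tregs, the Foxp3-expressing CD4 T cells that restrain immunity. The Tumor group held 5 libraries of Tregs from colon tumours of male Apc Min/+ Foxp3 DTR mice. The WT group held 5 libraries of Tregs from male Foxp3 DTR mice, labelled as colon and with the genotype WT. All animals were 16 weeks old, on C57BL/6, and the gate of the sort was CD45+ CD3+ CD4+ CD25+ GFP+. The Apc Min allele truncates Apc, an inhibitor of Wnt signalling, in the whole animal, and both groups carried the diphtheria toxin receptor under Foxp3. No label says whether each library is a different animal, so p-values refer to the spread among these samples, which may be technical.

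Adenosine outside cells is made from ATP in steps. CD39, encoded by Entpd1, removes phosphates from ATP and ADP to give AMP, and CD73, encoded by Nt5e, turns AMP into adenosine. Mouse Tregs are known for carrying both on their surface. CD38, an NAD-consuming ectoenzyme, opens another route towards AMP. Adenosine deaminase (Ada) converts adenosine to inosine, CD26 (Dpp4) is a surface peptidase that binds adenosine deaminase in humans, and adenosine kinase (Adk) turns adenosine back into AMP inside the cell. The receptors encoded by Adora2a and Adora2b couple to Gs and raise cAMP, which acts through protein kinase A and the CREB family.

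The cAMP arm is why 3 sequences are shown, the 250 bases before the RefSeq start sites of the members that hold the core of the cAMP response element (GRCm38.p6, the build of mm10, plus strand, 5′ to 3′). Capitals mark TGACG, searched on both strands, which appears as CGTCA where it lies on the opposite strand. The first Entpd1 window is chr19:40612116-40612365, the second is chr19:40659520-40659769, inside the gene, and the Adk window is chr14:21052324-21052573.
Entpd1, first start: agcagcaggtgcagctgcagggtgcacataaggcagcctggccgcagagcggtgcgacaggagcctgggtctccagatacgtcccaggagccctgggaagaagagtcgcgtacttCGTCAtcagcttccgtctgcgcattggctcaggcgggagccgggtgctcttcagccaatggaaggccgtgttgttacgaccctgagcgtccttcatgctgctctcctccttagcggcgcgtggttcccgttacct
Entpd1, second start: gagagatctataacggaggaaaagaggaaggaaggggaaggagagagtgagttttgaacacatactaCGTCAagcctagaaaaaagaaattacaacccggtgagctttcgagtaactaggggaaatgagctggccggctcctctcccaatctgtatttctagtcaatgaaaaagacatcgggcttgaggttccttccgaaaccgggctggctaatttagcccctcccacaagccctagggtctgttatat
Adk, first start: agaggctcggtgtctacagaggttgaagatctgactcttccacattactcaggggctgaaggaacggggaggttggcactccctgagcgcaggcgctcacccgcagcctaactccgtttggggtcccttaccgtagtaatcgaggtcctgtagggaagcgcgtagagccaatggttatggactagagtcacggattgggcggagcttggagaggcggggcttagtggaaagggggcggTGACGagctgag
The motif begins 135 and 183 bases before the Entpd1 starts and 12 bases before the Adk start. RefSeq start sites were matched for 7 of the 8 members, not for Adora2a, and gave 9 windows, of which these 3 held the motif, against 17.8% of 32851 windows of the same length over all genes. The windows of Nt5e and Cd38 lay wholly inside annotated exons of those genes (all 250 bases), so they are not purely upstream sequence. The full element TGACGTCA, which contains TGACG, was in none of the 9 windows and in 1.55% of all, and the forkhead motif TGTTTAC was in none of the 9 and in 3.17% of all. A match describes the letters of a window and does not show that a factor binds there.

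The libraries differed in the RNA they held, and this touches every member. The Tumor libraries held 3054435 to 7747699 counted reads and the WT libraries 1676229 to 8412887. The 7 defining Treg genes (Foxp3, Il2ra, Ctla4, Ikzf2, Tnfrsf18, Tnfrsf4 and Tigit) had reads in all 10 libraries, and their summed level was 2685 to 6396 CPM (reads as a share of the library) in Tumor against 83.1 to 1003 CPM in WT. The geometric mean of 14 pan-T genes was 245 to 394 CPM in Tumor and 11.2 to 103 CPM in WT. Epithelial genes (16) summed to 26540 and 34510 CPM in WT replicates 1 and 2, to 173 to 282 CPM in WT replicates 3 to 5 and to 58.3 to 5346 CPM in Tumor. Macrophage and monocyte genes (12) summed to 1357 to 6117 CPM in Tumor and to 74.1 to 174.6 CPM in WT. Most of the Tumor sums were Apoe and Lyz2. These and C1qa, C1qb and C1qc had all Tumor libraries above all WT libraries, while the other genes of the list overlapped. Adgre1 was at 3.10 to 19.3 CPM in Tumor and 5.95 to 19.6 CPM in WT, and Fcgr1 at 0.250 to 5.81 and 0.476 to 8.64 CPM. Reads over 1466 olfactory and vomeronasal receptor genes, a gauge of reads that come from no expressed gene, lay at 2.29 to 4.19 CPM per kilobase in WT replicates 1, 3, 4 and 5 and at 1.05 to 2.02 in the Tumor libraries and WT replicate 2 (1.22). In bulk libraries, fewer cells of a type and less RNA per cell cannot be told apart. Each member is therefore given on TMM scaling (trimmed mean of M values, the scale of all CPM below), and relative to the 14 pan-T genes of its library, termed pan-T scaling.

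None of the 8 genes passed the test between Tumor and WT. The edgeR quasi-likelihood test with Benjamini-Hochberg adjustment called 0 of 8, where 1.59% of all tested genes were called. Of the 8, Entpd1 and Nt5e had an unadjusted p below 0.05, as did 3439 of the 21414 tested genes. DESeq2 called Entpd1 and Nt5e higher in Tumor (adjusted p = 0.0186 and 0.0178), where it called 3.18% of all genes higher. The limma voom fit called Entpd1 higher (adjusted p = 0.0363, 2.12% of all genes higher), and voom with quality weights called Nt5e higher (adjusted p = 0.0427, 3.13% of all genes). Without WT replicates 1 and 2, 0 members were called and 7.9% of all genes were. In that fit 2 members had an unadjusted p below 0.05, as did 5730 of 25230 genes. The median log2 fold change of the 8 was 0.22, beside -0.20 over all tested genes. In simulated counts over 21414 genes, 200 of them changed, the edgeR procedure called 4.48% of genes changed 4-fold and 60.6% of genes changed 16-fold. That simulation gave 46 edgeR calls, against 340 in the data, and gave no library its own cell content. Its shares may therefore differ from those of the data. A member that did not pass can still differ several fold.

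**Figure D1:**
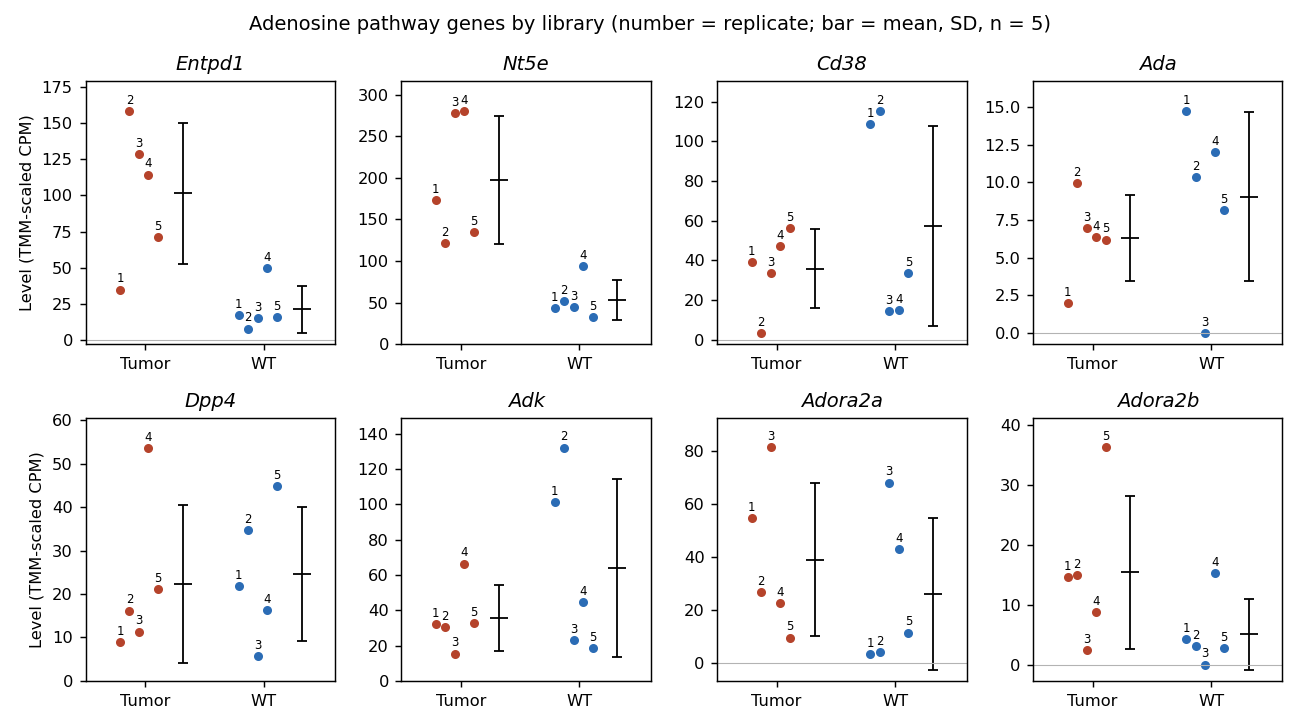
Level of each of the 8 genes in each library (vertical axes, TMM-scaled CPM, each panel with its own range), Tumor in red and WT in blue, with the replicate number beside each point and the mean and SD (n = 5) at the right of each group. Nt5e is the panel in which all 5 Tumor libraries lie above all 5 WT libraries, Entpd1 overlaps through Tumor replicate 1 and WT replicate 4, and WT replicates 1 and 2 are the highest points for Cd38 and Adk.

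Of the ectoenzymes, Entpd1 (ENSMUSG00000048120, chromosome 19, 40612366 to 40741602) stood at 34.8, 158, 129, 114.5 and 71.1 CPM in Tumor replicates 1 to 5 and at 17.1, 7.88, 15.02, 49.9 and 15.9 CPM in WT replicates 1 to 5. The groups overlapped only through Tumor replicate 1, which lay below WT replicate 4, and the WT library that was highest for Entpd1 was also the highest in pan-T genes. Tumor averaged 101.5 ± 48.7 CPM and WT 21.1 ± 16.5 CPM (SD, n = 5), and the fitted log2 difference was 2.26 ± 0.59 (SE, edgeR adjusted p = 0.0593). Without WT replicate 4 the value was 2.90 and passed (adjusted p = 0.0196, where 1.52% of all genes were called higher), and in the other 9 fits that left out 1 library it did not. Per kilobase, Entpd1 in WT replicates 1, 2, 3 and 5 was 0.643 to 1.34 times the density over the olfactory and vomeronasal receptor genes of the same library, in WT replicate 4 it was 3.91 times, and in the Tumor libraries 3.11 to 21.9 times. Entpd1 is also a gene of macrophages. Macrophage genes summed to 1357, 4997, 1480, 2033 and 6117 CPM in Tumor replicates 1 to 5, mostly Apoe and Lyz2, and to 74.1 to 174.6 CPM in WT. Tumor replicate 1 was the lowest of the Tumor group in both macrophage genes and Entpd1, replicate 2 was second highest and highest, and replicate 5 was highest and second lowest. The part of macrophage RNA in the difference was not tested.

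Nt5e (ENSMUSG00000032420, chromosome 9, 88327197 to 88372092) had the most reads of the 8 genes over the 10 libraries. Its level was 173, 121, 278, 280.4 and 135 CPM in Tumor and 43.1, 51.55, 44.6, 94.3 and 32.7 CPM in WT replicates 1 to 5. The lowest Tumor value exceeded the highest WT value, as it did for 4.38% of all tested genes. The means were 198 ± 76.8 and 53.2 ± 23.9 CPM (SD, n = 5), and the log2 fold change was 1.89 ± 0.55 (SE, edgeR adjusted p = 0.0967). It did not pass in any of the 10 fits without 1 library, where its value stayed between 1.75 and 2.22. Unlike Entpd1, Nt5e exceeded the receptor-gene density in every WT library, by 1.10 to 4.92 times, and in Tumor by 7.79 to 30.7 times.

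The ratio of reads of these successive enzymes did not differ beyond the spread between libraries. Reads of Entpd1 against reads of Nt5e within a library, a ratio that no scaling can move, had a mean log2 value of -1.05 ± 0.96 (SD, n = 5) in Tumor and -1.51 ± 0.71 in WT. The difference was 0.46 (exact permutation test, 2-sided, p = 0.381, adjusted p = 0.651 over 3 ratios). Tumor replicate 2 had the highest log2 ratio, 0.38, and WT replicate 2 the lowest, -2.70. Reads that come from no expressed gene can still move the ratio. In WT replicates 1, 2, 3 and 5, Entpd1 stood at only 0.643 to 1.34 times the receptor-gene density. The WT ratio is therefore a weak measure of the balance of the enzymes.

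Cd38 (ENSMUSG00000029084, chromosome 5, 43868553 to 43912375) was at 39.1, 3.315, 33.4, 47.0 and 56.2 CPM in Tumor and at 109, 115, 14.55, 14.9 and 33.6 CPM in WT replicates 1 to 5. WT replicates 1 and 2, the libraries rich in epithelial genes, were the highest, and Tumor replicate 2, the library with the lowest epithelial level, had 8 reads and was the lowest. The log2 fold change was -0.68 ± 0.70 (SE, edgeR adjusted p = 0.645), and without WT replicates 1 and 2 it was 0.82 ± 0.73 (adjusted p = 0.547). The part of epithelial RNA in it was not tested.

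Among the clearing genes, Adk (ENSMUSG00000039197, chromosome 14, 21052574 to 21448569) followed the same libraries. It stood at 32.3, 30.7, 15.4, 66.4 and 32.6 CPM in Tumor and at 101, 132, 23.0, 44.4 and 18.6 CPM in WT replicates 1 to 5. Outside WT replicates 1 and 2, the WT values lay within the Tumor range. The log2 fold change was -0.85 ± 0.59 (SE, edgeR adjusted p = 0.486) and turned to 0.31 ± 0.63 (adjusted p = 0.819) without WT replicates 1 and 2. Against those 2 libraries alone it was -1.72 ± 0.49 (adjusted p = 0.0369), where 2.09% of all genes were called lower. Per kilobase, Adk was at 0.632 to 2.28 times the receptor-gene density in WT replicates 3 to 5 and at 5.19 and 12.7 times in WT replicates 1 and 2.

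Ada (ENSMUSG00000017697, chromosome 2, 163726584 to 163750239) was the gene with the fewest reads, 7, 24, 43, 36 and 27 in Tumor and 63, 75, 0, 33 and 18 in WT replicates 1 to 5. The groups overlapped, and the 0 reads of WT replicate 3 allow a level of up to 1.41 CPM (3 reads of that library, counting error only). Tumor averaged 6.30 ± 2.85 CPM and WT 9.06 ± 5.603 CPM (SD, n = 5), and the log2 difference was -0.53 ± 0.94 (SE, edgeR adjusted p = 0.808). Dpp4 (ENSMUSG00000035000, chromosome 2, 62330073 to 62412231) was at 8.99, 16.2, 11.4, 53.6 and 21.1 CPM in Tumor and at 21.8, 34.7, 5.63, 16.4 and 44.9 CPM in WT replicates 1 to 5. Its highest libraries were Tumor replicate 4 and WT replicate 5, and the log2 fold change was -0.15 ± 0.66 (adjusted p = 0.929). An antisense model over Dpp4, Gm13561, had 89 reads in all of Tumor and 102 in all of WT. Over Cd38 lay Gm16015 (antisense, 1 and 28 reads in Tumor and WT) and Gm16014 (6 and 35). Over Adk lay Gm26372 (80 and 10), and over Entpd1 Gm8783 (12 and 8) and Gm16027 (8 and 1). The strand setting is not given, so it cannot be told whether reads of overlapping genes were kept apart. Within a library, Ada against Adk had a mean log2 ratio of -2.48 ± 1.17 in Tumor and -3.22 ± 2.13 in WT (SD, n = 5). That difference of 0.74 was within the spread (exact permutation test, 2-sided, p = 0.571, adjusted p = 0.651 over 3 ratios) and was -0.12 without WT replicate 3, the library with 0 Ada reads.

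Of the receptors, Adora2a (ENSMUSG00000020178, chromosome 10, 75316877 to 75334784) was high in some libraries of each group. It was at 54.5, 26.5, 81.5, 22.4 and 9.41 CPM in Tumor and at 3.28, 3.87, 68.1, 42.9 and 11.3 CPM in WT replicates 1 to 5. WT replicates 3 and 4, with 145 and 118 reads, reached Tumor levels, while the epithelial-rich WT replicates 1 and 2 had 14 and 28 reads in the larger libraries. Over all libraries the log2 fold change was 0.60 ± 0.78 (SE, edgeR adjusted p = 0.729). It ran from 0.13 without Tumor replicate 3 to 1.39 without WT replicate 3 (adjusted p = 0.966 and 0.456). Against WT replicates 1 and 2 alone it was 3.43 ± 0.86 (adjusted p = 0.013), where 2.32% of all genes were called higher, as Entpd1 (3.07 ± 0.63, adjusted p = 0.00191) and Nt5e (2.06 ± 0.51, adjusted p = 0.0122) also were, and against WT replicates 3 to 5 alone it was -0.05 ± 0.68 (adjusted p = 0.977). Per kilobase, WT replicates 3 and 4 stood at 5.31 and 6.14 times the receptor-gene density, close to Tumor replicates 2 and 4 (5.35 and 5.39 times), while WT replicates 1, 2 and 5 were at 0.467 to 1.07 times.

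Adora2b (ENSMUSG00000018500, chromosome 11, 62248984 to 62266453), which encodes the receptor of lower affinity, stood at 14.6, 14.9, 2.435, 8.70 and 36.25 CPM in Tumor and at 4.21, 3.04, 0, 15.3 and 2.72 CPM in WT replicates 1 to 5. Tumor replicate 5, the highest, also had the most epithelial and macrophage reads per library total of the Tumor group (5346 and 6117 CPM), whose part was not tested, and WT replicate 3 had 0 reads, which allows up to 1.41 CPM. The means of 15.4 ± 12.7 and 5.05 ± 5.93 CPM (SD, n = 5) gave a log2 fold change of 1.598 ± 0.99 (SE, edgeR adjusted p = 0.429). It ran from 1.03 without Tumor replicate 5 to 2.65 without WT replicate 4 (adjusted p = 0.648 and 0.255). Adora2a against Adora2b within a library had a mean log2 ratio of 1.43 ± 2.49 in Tumor and 2.33 ± 3.40 in WT. The difference, -0.90, did not exceed the spread (exact permutation test, 2-sided, p = 0.651, the same after adjustment over 3 ratios), and it turned to 0.57 without WT replicate 3.

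Scaled to pan-T genes, no member was higher in Tumor. Pan-T scaling moved the median over all tested genes from -0.20 to -3.52 (log2) and put 89.2% of all tested genes lower in Tumor, so 5 of 8 members lower is not a result about these genes. Those 5 were Adk (-4.38 ± 0.99), Cd38 (-4.33 ± 1.07), Ada (-4.15 ± 1.19), Dpp4 (-3.64 ± 0.93) and Adora2a (-2.12 ± 0.90, SE, edgeR adjusted p = 0.0297). Entpd1, Nt5e and Adora2b were at -0.88 ± 0.78, -1.30 ± 0.73 and -1.13 ± 1.16 and did not pass (adjusted p = 0.274, 0.0918 and 0.345), each above the median of all genes. Without WT replicates 1 and 2, 3 members stayed lower, Adk, Dpp4 and Adora2a, where 53.6% of all genes were. Against WT replicates 1 and 2 alone, Nt5e was called lower too (-1.86, adjusted p = 0.00296) and Adora2a was not (-0.60), 5 members in all, where 71.6% of all genes were lower. The call of Adora2a was lost without Tumor replicates 2, 4 or 5 or WT replicate 3 (adjusted p up to 0.134), whereas those of Adk, Cd38, Ada and Dpp4 held in all 10 fits without 1 library, in which 70.3 to 89.8% of all genes were lower.

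**Figure D2:**
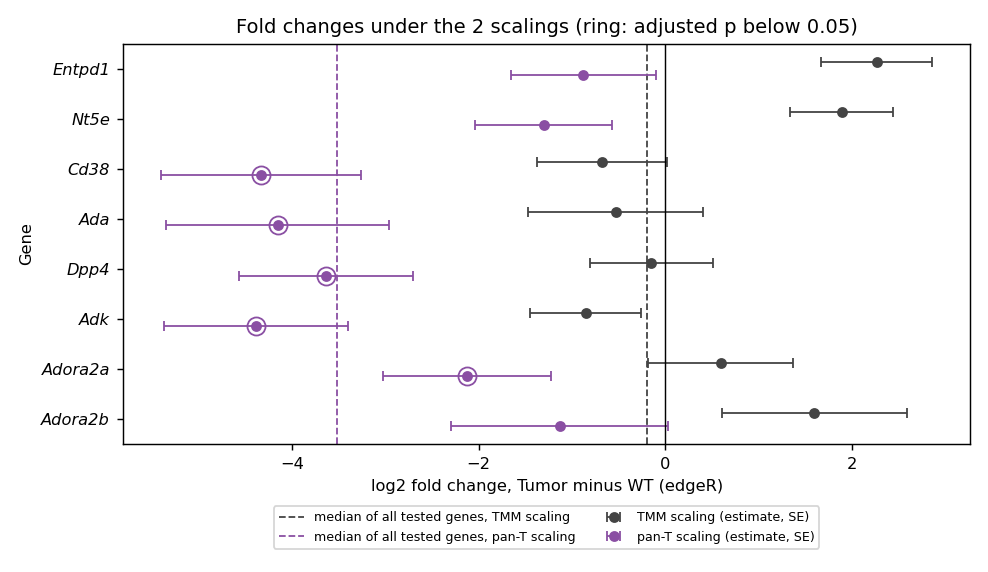
Log2 fold change of each gene, Tumor minus WT, with its SE (horizontal axis), on TMM scaling in grey and on pan-T scaling in purple, with dashed lines at the median of all tested genes on each scaling and rings on values with an adjusted p below 0.05. Entpd1 and Nt5e lie furthest to the right on TMM scaling (2.26 and 1.89), and on pan-T scaling they lie left of 0 but right of the median of -3.52.

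Reads as a share of the pan-T genes show the same per library. Entpd1 had 11.2 to 43.1% of the geometric mean of the 14 pan-T genes in Tumor and 20.8 to 113.5% in WT (means 29.3 ± 11.8% and 54.1 ± 37.7%, SD, n = 5). Nt5e had 33.0 to 84.6% in Tumor and 70.4 to 286% in WT. In WT replicates 3 and 4, where pan-T genes were most abundant among the WT libraries, the shares of Entpd1 were 23.7 and 49.2% and those of Nt5e 70.4 and 93.1%, inside or just above the Tumor range. Adk and Cd38 had 3.11 to 20.0% and 0.902 to 25.0% in Tumor, against 347.7 to 673% and 303 to 721% in WT replicates 1 and 2. In WT replicates 3 to 5, Adk had 36.3, 43.85 and 74.4%, all above the Tumor range, and Cd38 had 22.96, 14.74 and 134%, of which the last was above it. Per kilobase, Adk in WT replicates 3 and 5 and Entpd1 in WT replicate 3 lay below the receptor-gene density (0.644, 0.632 and 0.643 times). Those shares may largely reflect reads that come from no expressed gene, which was not tested.

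The enzymes were set against each other after these values had been seen, so the following ratios carry no test. Reads of Nt5e per read of Adk came to 5.34, 3.94, 17.9, 4.22 and 4.14 in Tumor replicates 1 to 5 and to 0.426, 0.391, 1.93, 2.12 and 1.75 in WT replicates 1 to 5. The groups did not overlap, also against the 3 WT libraries with few epithelial reads. Of the ratios of Nt5e to each other tested gene, 19.1% were separated in this way. In WT replicates 3 and 5, Adk was at 0.644 and 0.632 times the receptor-gene density and Nt5e at 1.24 and 1.10 times. The ratios of those libraries may rest largely on reads that come from no expressed gene, which was not tested. Entpd1 per read of Adk came to 1.078, 5.13, 8.30, 1.72 and 2.18 in Tumor and to 0.170, 0.0602, 0.657, 1.12 and 0.855 in WT, overlapping through Tumor replicate 1 and WT replicate 4. Nt5e per read of Cd38 overlapped as well, at 2.40 to 34.5 in Tumor and 0.397 to 6.25 in WT.

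**Figure D3:**
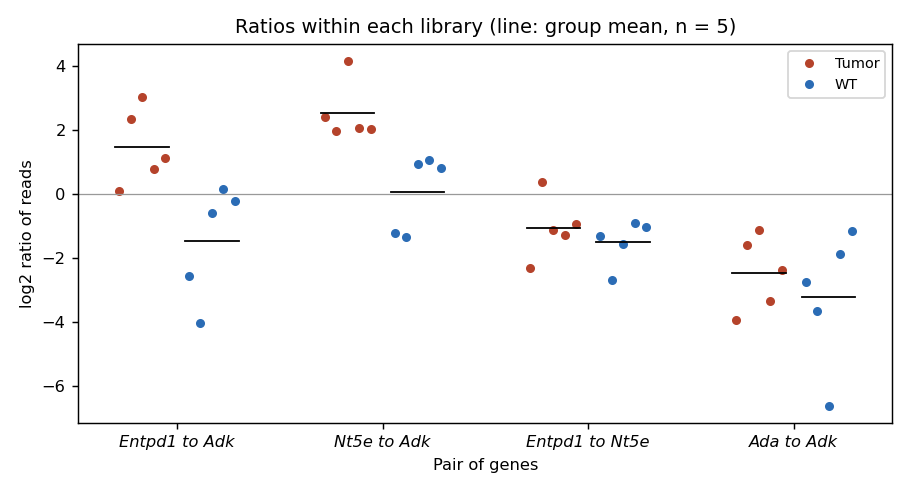
Log2 ratio of reads of 2 genes within each library (vertical axis), 4 pairs, Tumor in red and WT in blue, each point 1 library and each line a group mean (n = 5). The ratio of Nt5e to Adk separates the groups without overlap (1.98 to 4.16 in Tumor, -1.36 to 1.083 in WT), while the groups overlap for the other 3 pairs. Adk lay below the receptor-gene density in WT replicates 3 and 5.

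**Figure D4:**
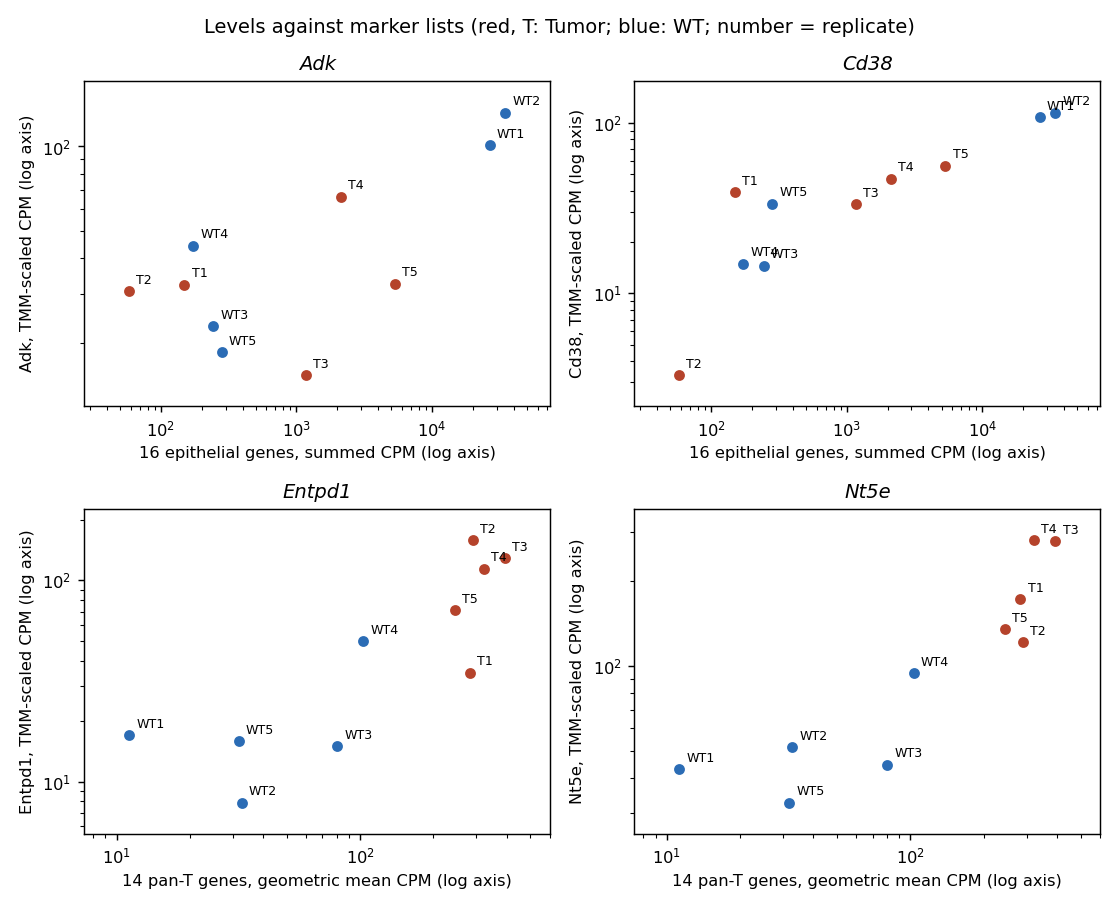
Level of Adk and Cd38 against the summed CPM of 16 epithelial genes (top) and of Entpd1 and Nt5e against the geometric mean of 14 pan-T genes (bottom), both axes logarithmic, each point 1 library, Tumor in red and WT in blue. WT replicates 1 and 2 stand at the far right of both upper panels with the highest levels, and in the lower panels WT replicate 4, the WT library with the most pan-T reads, is the WT point nearest to the Tumor libraries.

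The order of the genes differed between the groups on the scale of level per length (CPM per kilobase). In Tumor the medians were 20.5 for Entpd1, 20.1 for Nt5e, 10.04 for Cd38, 8.66 for Adora2a, 7.92 for Adora2b, 3.79 for Adk, 3.19 for Ada and 2.56 for Dpp4. Nt5e was above Cd38 in 5 of 5 Tumor libraries, and Entpd1 exceeded Nt5e in only 1 of 5, so the 2 leading genes cannot be ordered. Adora2a exceeded Adora2b in 4 of 5 Tumor libraries, and each of the other neighbours exceeded the next in 2 or 3 of 5. In WT the medians ran from 8.63 for Cd38 through 5.21 for Adk, 5.19 for Nt5e and 5.18 for Ada to 2.85 for Entpd1 and 1.65 for Adora2b. Apart from Cd38 over Adk and Entpd1 over Adora2b (4 of 5 each), no WT gene exceeded the next in more than 3 of 5 libraries.

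Profiles most like each member were sought among 12457 protein coding genes of at least 10 CPM, by the mean absolute difference of log2(CPM + 1) over the 10 libraries after centring each gene. For Entpd1 they were Arhgef6, Nckap1l and Cyfip2, with differences of 0.372, 0.373 and 0.402 where the median gene had 1.39. For Nt5e they were Slc16a6, Skil and Btg1 (0.215, 0.215 and 0.227, median 1.15), the closest matches of any member. Cd38 was nearest to Hoxa9, Acadm and Lrrc19 (0.369 to 0.388, median 1.29), and Adk to Rrbp1, Gadd45a and Lpp (0.299 to 0.379, median 1.13). Dpp4 was nearest to Rap1gap2, Fndc3a and Hpn (0.286 to 0.396), Adora2b to Cyp4f18, Galnt11 and R3hcc1l (0.420 to 0.482), and Adora2a, the least matched, to Vav1, Slc14a1 and Tut4 (0.563 to 0.599). These values describe 10 libraries that differ in their cell content. Ada, under 10 CPM on average, was not compared.

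Of 80 other genes of purine handling and cAMP signalling, 74 were tested, and 2 rose and 1 fell (edgeR, adjusted p below 0.05), where 1.37% of all tested genes rose and 0.219% fell. Both that rose are in the list of 21 cAMP genes, and a link to the adenosine receptors was not tested. Crem, a cAMP-responsive transcription factor of the CREB family, stood at 497, 573, 488, 562 and 244 CPM in Tumor and at 16.6, 15.5, 60.1, 124.5 and 24.95 CPM in WT replicates 1 to 5. The groups did not overlap, a separation that 4.38% of all tested genes had in the same direction. The log2 fold change of Crem was 3.29 ± 0.74 (SE, edgeR adjusted p = 0.0297). Prkar1a, the regulatory subunit that holds protein kinase A inactive until cAMP binds, was at 613, 585, 687, 680.4 and 386 CPM in Tumor and at 60.1, 142, 56.3, 125 and 15.9 CPM in WT, again without overlap, and rose by 2.88 ± 0.70 (adjusted p = 0.0423). On pan-T scaling neither passed, Crem at 0.56 ± 0.73 and Prkar1a at -0.27 ± 0.85 (adjusted p = 0.451 and 0.761). Against WT replicates 1 and 2 alone on that scaling, Prkar1a was called lower in Tumor (-1.15 ± 0.43, adjusted p = 0.0218), where 71.6% of all genes were, and Crem was not (0.89 ± 0.56, adjusted p = 0.141). With RLE factors, the scaling of DESeq2, Prkar1a was just outside the threshold (edgeR adjusted p = 0.0514), and with the replicate block Crem and Prkar1a were at 0.0542 and 0.0899. Their calls held in 5 and 3 of the 10 fits without 1 library, with values from 3.01 to 4.02 and from 2.62 to 3.20; Crem was lost without Tumor replicates 1, 2, 3 or 4 or WT replicate 1 (adjusted p up to 0.104), and Prkar1a also without Tumor replicate 5 or WT replicate 3 (up to 0.126). Both passed without WT replicates 1 and 2 (2.75 and 3.15, adjusted p = 0.017 and 0.0123).

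The gene that fell was Entpd8, an ectonucleotidase of epithelium. It was at 0.459 to 4.08 CPM in Tumor and at 89.4, 72.0, 7.98, 9.46 and 7.26 CPM in WT replicates 1 to 5, so WT replicates 1 and 2 were again far above the rest, and the log2 fold change was -3.998 ± 0.91 (SE, edgeR adjusted p = 0.0304). No Tumor library reached a WT library, as for 1.57% of all tested genes. Without WT replicates 1 and 2 Entpd8 did not pass (-1.81 ± 1.20, adjusted p = 0.395), and the part of epithelial RNA was not tested. Its call held in 3 of the 10 fits without 1 library, those without WT replicates 3, 4 or 5 (adjusted p up to 0.147 in the other fits). It did not pass with limma voom, voom with quality weights or the replicate block either (adjusted p = 0.0961, 0.0646 and 0.139). In the other 7 ectonucleotidases none passed, and the list of 8 had a median log2 fold change of -1.11, beside -0.20 for all tested genes.

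In the other lists no gene passed the edgeR test. Among 18 tested nucleotide enzymes of the cell interior the most abundant were Aprt and Nt5c, at 1.36 ± 0.90 and 0.80 ± 0.87 (log2, SE). Among 7 nucleoside transporters, Slc28a2, a concentrative carrier, was at 29.0 to 54.0 CPM in Tumor and 9.53 to 24.75 CPM in WT, without overlap, as 4.38% of all tested genes were (1.27 ± 0.52, edgeR adjusted p = 0.234), and Slc29a1, an equilibrative carrier, was at 0.90 ± 0.73. Among 15 tested genes of pannexins or with P2 receptor symbols, the most abundant were P2ry10 (3.18 ± 0.88, adjusted p = 0.0758) and the ATP channel gene Panx1 (1.85 ± 0.51, adjusted p = 0.0720). The list was drawn up by symbol, and the symbol of P2ry10 does not show that its product responds to nucleotides. In this list P2ry10 and Panx1 had all Tumor libraries above all WT libraries and 2 genes had all below. Of all tested genes 4.38 and 1.57% did. The lower ones, named after their values were seen, were Panx3 (-2.88 ± 0.91, adjusted p = 0.127) and P2ry2 (-2.23 ± 0.96, adjusted p = 0.261). Of the NAD ectoenzymes, Art2b, which modifies surface proteins of mouse T cells, was at 2.68 ± 0.99 (adjusted p = 0.194) and Art3 at -0.32 ± 0.76. Of the other adenosine receptors, Adora1 was at 16.97 ± 10.4 CPM in Tumor and 19.95 ± 16.9 CPM in WT (SD, n = 5), and Adora3 was too low to be tested. The 21 cAMP genes had a median of 0.39, with 14 of 21 values positive, and on pan-T scaling 18 of the 21 were lower and none higher, where 89.2% of all genes were lower.

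**Figure D5:**
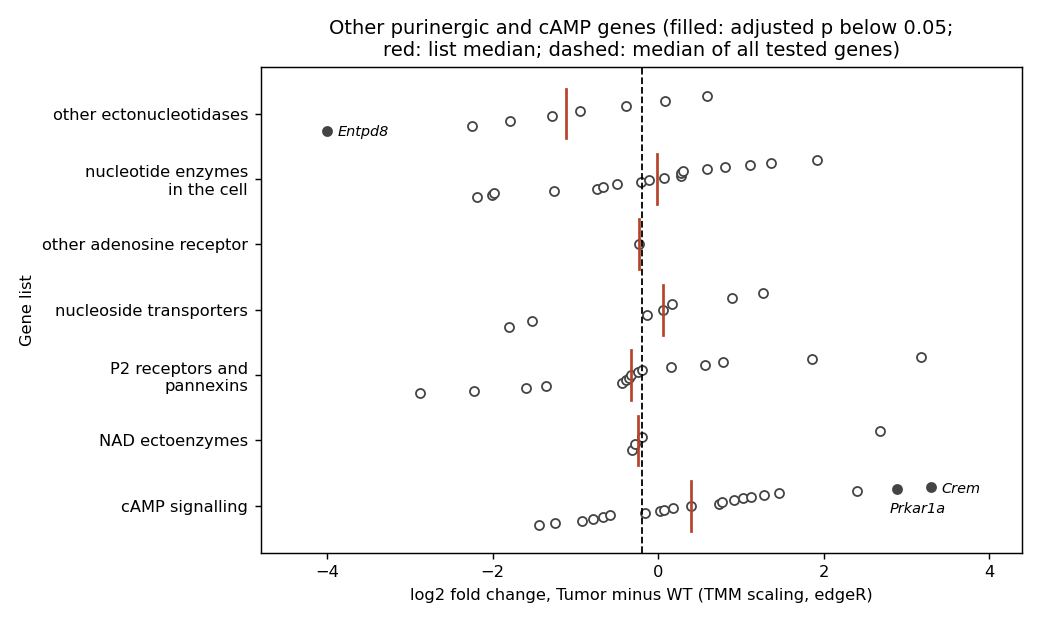
Log2 fold change, Tumor minus WT on TMM scaling (horizontal axis), of the 74 tested genes in 7 lists, each point 1 gene, filled where the adjusted p was below 0.05, with the list median in red and the median of all tested genes (-0.20) dashed. Crem and Prkar1a are the filled points at the right of the cAMP list and Entpd8 is the filled point at the left of the ectonucleotidases.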

How the data were processed

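Raw read counts per gene, not normalized, were deposited by the authors for 10 libraries, and the 10 single-library files held the same counts as the table used. The submitters' processing notes name mm10, the aligner HISAT2 (2.0.5) and the counter featureCounts (1.5.0-p3). Strand setting, annotation and the handling of multiply mapped reads are not given in the sources used here. Groups and replicate numbers came from the titles.

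Counts were analysed in R 4.3.3 with edgeR 4.0.16: filterByExpr (minimum count 10, minimum total 15), TMM, a robust quasi-likelihood F test with group as its term, 2-sided, Benjamini-Hochberg adjustment over 21414 genes, calls below 0.05. The SE is the log2 fold change divided by the square root of F. DESeq2 1.42.0 and limma 3.58.1 served as alternatives. The common dispersion was 0.742. The procedure was tested on simulated counts with 200 changed genes, where 6.52% of edgeR calls and 34.6% of DESeq2 calls were unchanged genes. Ratios within a library used 0.5 added reads. The authors' table also gives gene lengths, in bases.

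The 8 genes and all lists were chosen with earlier results of these data known. Named were all 8, every called gene of the pathway lists, the 2 most abundant in lists without calls, and the 3 nearest profiles per gene. Reads carry no molecular identifiers, so limits at 0 reads cover counting error only.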

Additional observations from a re-analysis of the deposited data

Results flagged for a closer look

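Among the 16 sets of 5 values (8 genes in 2 groups), 3 held a library far from the other 4, judged by its gap to the nearest value over the range of the set, and chance marks about 1 set in 20. Entpd1 was 49.9 CPM in WT replicate 4, where the next WT library had 17.1 CPM. Adora2b was 15.3 CPM in the same library, where the next had 4.21 CPM. Dpp4 was 53.6 CPM in Tumor replicate 4, where the next Tumor library had 21.1 CPM. WT replicate 4 also had the highest pan-T level of the WT libraries, 103 CPM.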

How the results depend on the processing

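The count of 340 genes called became 19117 with pan-T scaling, 1651 with DESeq2, 768 with voom and quality weights, 820 with no filter, 141 with the replicate number as a block, 0 with a length-proportional background subtracted (732 at an unadjusted p below 0.05), 1993 without WT replicates 1 and 2 and 1325 without WT replicates 3, 4 and 5. Without 1 library it ran from 65 to 417. The 0 members called became 5 with pan-T scaling, 2 with DESeq2, 1 each with voom, voom with quality weights and no filter, 4 without WT replicates 3, 4 and 5, and 0 to 1 without 1 library. The 3 other genes called became 65, 10, 5 (quality weights), 5 (no filter), 0 (replicate block) and 0 (background subtracted), 9 without WT replicates 1 and 2, 9 without WT replicates 3, 4 and 5, and 0 to 5 without 1 library. Of all tested genes, 89.3% were called with pan-T scaling, 7.71% with DESeq2, 2.24% with voom and 3.59% with quality weights. The share was 1.6% with no filter and 0.658% with the replicate block. It was 7.9% without WT replicates 1 and 2, 4.41% without WT replicates 3, 4 and 5, and 0.275 to 1.84% without 1 library. The replicate block called 0 members (Entpd1 2.33, adjusted p = 0.137, Nt5e 1.90, adjusted p = 0.192, edgeR), and same-numbered Tumor and WT libraries did not deviate together (correlations over 13658 genes from -0.20 to 0.03). The labels do not say whether such libraries share more than a number. With libraries that differ in cell content, these correlations cannot settle it. The 5 members called with pan-T scaling became 3 without WT replicates 1 and 2 and 4 to 5 without 1 library, alternatives added after the data were seen.

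Log2 fold changes that turned sign with pan-T scaling were those of Entpd1 (-0.88), Nt5e (-1.30), Adora2a (-2.12) and Adora2b (-1.13). Without WT replicates 1 and 2, Cd38 (0.82), Adk (0.31), Dpp4 (0.058) and Adora2a (-0.051) turned, and with the background subtracted Adora2a (-0.22). Dpp4 was 0.051 with no filter and ran from -0.74 to 0.18 without 1 library. The ratio of Adora2a to Adora2b turned to 1.44 (log2) without WT replicates 3, 4 and 5 and ran from -1.79 to 0.57 without 1 library, and that of Ada to Adk from -0.12 to 1.25. The filter of 10 CPM in 5 libraries gave no value for Ada and Adora2b. No ratio passed under any alternative run. With the replicate block, or without WT replicates 3, 4 and 5, no outcome could have passed, because too few arrangements of the libraries exist. The cause of these changes was not tested, apart from fewer samples or genes where these were left out.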
